A study of Mus musculus with 12 samples.

Results

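The metallothionein genes Mt1 and Mt2, 6 zinc importer genes of the Slc39a (ZIP) family and 2 exporter genes of the Slc30a (ZnT) family were examined in liver and primary hepatocytes of mice that lack JNK1 in hepatocytes and JNK2 in every cell. These 10 genes were taken from a fixed list of symbols, out of 18820 genes that a probe set with a single symbol measured, and all 10 were found. The list was chosen by measured values, among them the rise of Slc39a2 in JNKΔhepa liver, so every genotype difference in liver is given here as a description, without a test. The rule did not name the genotype difference in hepatocytes or the difference between hepatocytes and liver, and these were tested, except the second for Slc39a2, whose liver values it holds. The hepatocytes came from the same animals as the livers.

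JNKΔhepa mice carry the Jnk1 deletion (Mapk8, floxed) made by a Cre under the albumin promoter and alpha-fetoprotein enhancer elements, together with constitutive loss of Jnk2 (Mapk9). The WT mice were littermates with floxed Jnk1 and intact Jnk2 (Jnk1f/f Jnk2+/+), and all mice were C57BL/6 males aged 7 to 8 weeks on standard chow. A whole-liver sample and a primary hepatocyte sample came from each of 6 mice, 3 per genotype, and were hybridised to 12 arrays. The 4 groups were JNKΔhepa liver, WT liver, JNKΔhepa hepatocytes and WT hepatocytes, with 3 arrays each.

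Metallothioneins are small cysteine-rich proteins that bind zinc and copper in the cytosol, and hepatocytes make them in large amounts. Their genes are switched on by metal through the zinc-sensing factor MTF-1, which binds metal response elements, and also by glucocorticoids and by inflammatory signals such as interleukin-6. ZIP proteins bring zinc, and for some members iron and manganese, into the cytosol, and ZnT proteins move metal out of it.

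The promoters of the metallothionein genes and of Slc30a1, a known MTF-1 target in mouse, are shown because these genes share a metal-responsive control. Each line gives the 250 bases before the RefSeq transcription start (build GRCm38.p6), and capitals mark matches on either strand to the metal response core TGCACNC or TGCGCNC or to the AP-1 site TGANTCA, the site bound by Jun and Fos proteins. The windows are chr8:94178839-94179088 for Mt1, chr8:94172368-94172617 for Mt2 and chr1:191906531-191906780 for Slc30a1, all on the plus strand.
Mt1: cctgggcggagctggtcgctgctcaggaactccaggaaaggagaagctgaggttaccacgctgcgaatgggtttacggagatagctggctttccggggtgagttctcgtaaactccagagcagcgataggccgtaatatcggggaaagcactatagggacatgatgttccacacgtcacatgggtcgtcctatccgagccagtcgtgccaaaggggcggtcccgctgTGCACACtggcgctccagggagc
Mt2: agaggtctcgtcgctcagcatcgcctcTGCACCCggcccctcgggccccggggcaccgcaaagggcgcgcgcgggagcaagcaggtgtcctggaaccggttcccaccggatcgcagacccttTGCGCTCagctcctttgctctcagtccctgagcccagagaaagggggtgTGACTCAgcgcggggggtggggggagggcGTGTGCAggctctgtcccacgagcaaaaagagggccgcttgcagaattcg
Slc30a1: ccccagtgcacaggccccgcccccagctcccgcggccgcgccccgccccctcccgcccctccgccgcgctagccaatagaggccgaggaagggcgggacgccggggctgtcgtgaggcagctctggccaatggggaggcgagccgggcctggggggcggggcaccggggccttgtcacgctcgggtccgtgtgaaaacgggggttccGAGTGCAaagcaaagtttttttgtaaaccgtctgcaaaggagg

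RefSeq promoters were found for 8 of the 10 genes, all but Slc39a4 and Slc39a14. In these 250 bases Mt2 held 3 metal response cores, Mt1 held 1 and Slc30a1 held 1, and no match of one motif overlapped another in these 3 genes. At least 1 core was present in 21.4% of all 32851 promoter windows of this length, and at least 3 in 1.26%. When the 50 bases after the start were added, Mt1 had 3 cores, Mt2 had 4 and Slc30a1 had 2, against at least 2 cores in 7.11% and at least 3 in 1.97% of all such windows. The AP-1 site was found in Mt2, at 79 to 73 bases before the start, and in 6.75% of all windows before the start. Slc30a10 had 3 cores, a pair of them overlapping on opposite strands. Slc39a5 and Slc39a8 have 2 annotated starts each, and each held 1 core before 1 of them. Neither motif was found in the windows of Slc39a1 and Slc39a2. These are letter matches only.

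Loss of Mapk9 was visible in every JNKΔhepa array. It read 2.85, 2.33 and 3.02 in JNKΔhepa livers 1, 2 and 3 on the log2 scale of the arrays, against 8.59 to 8.69 in WT livers, and 2.29 to 2.62 in JNKΔhepa hepatocytes, against 7.74 to 8.10 in WT hepatocytes. Mapk8 changed by −0.61 in hepatocytes (SE 0.0762, limma adjusted p = 0.00183), and its probe set need not lie in the deleted part. The mean log2 level of 8 hepatocyte markers was 12.10 to 12.18 in JNKΔhepa hepatocytes and 12 to 12.14 in WT hepatocytes, against 12.20 to 12.27 over the livers of both genotypes. Arrays of a group correlated at r = 0.9865 to 0.9928 over probe sets. The array median was 3.22 to 3.28 in hepatocytes and 4.09 to 4.12 in liver, so the tissues differ in scale and a level set across them depends on the normalisation.

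Mt1 and Mt2 had the widest spread among mice of the 10 genes. Mt1 read 10.51, 10.37 and 10.44 in JNKΔhepa livers 1, 2 and 3, against 9.84, 8.30 and 10.58 in WT livers. Mt2 read 11.79, 11.79 and 11.65 in JNKΔhepa livers, against 11.67, 9.80 and 11.98 in WT livers. The JNKΔhepa livers were tightly grouped and WT liver 2 lay far below all others for both genes, so the genotypes overlapped. The log2 change of Mt1 in liver was 0.87 (SE 0.573) with all arrays and 0.23 without WT liver 2 or 1.37 without WT liver 3, and that of Mt2 was 0.59 (SE 0.697) (−0.083 without WT liver 2 and 1.005 without WT liver 3).

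In hepatocytes both genes split the arrays of each genotype. Mt1 read 8.00, 10 and 9.94 in JNKΔhepa hepatocytes 1, 2 and 3, against 8.57, 9.77 and 8.64 in WT hepatocytes. Mt2 read 9.15, 11.45 and 11.57 in JNKΔhepa hepatocytes, against 9.33, 11.37 and 9.37 in WT hepatocytes. JNKΔhepa sample 1 and WT samples 1 and 3 were low for both genes, and JNKΔhepa samples 2 and 3 and WT sample 2 were high. The genotype change did not pass for Mt1 (log2 change 0.32, 95% interval −0.92 to 1.56, limma adjusted p = 0.891) or for Mt2 (0.70, 95% interval −0.81 to 2.21, adjusted p = 0.762). Leaving out single hepatocyte arrays moved the Mt1 change to between −0.024 (without JNKΔhepa 2) and 0.98 (without JNKΔhepa 1). For Mt2 the lowest value was 0.28 (without JNKΔhepa 3) and the highest 1.48 (without JNKΔhepa 1).

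**Figure D1:**
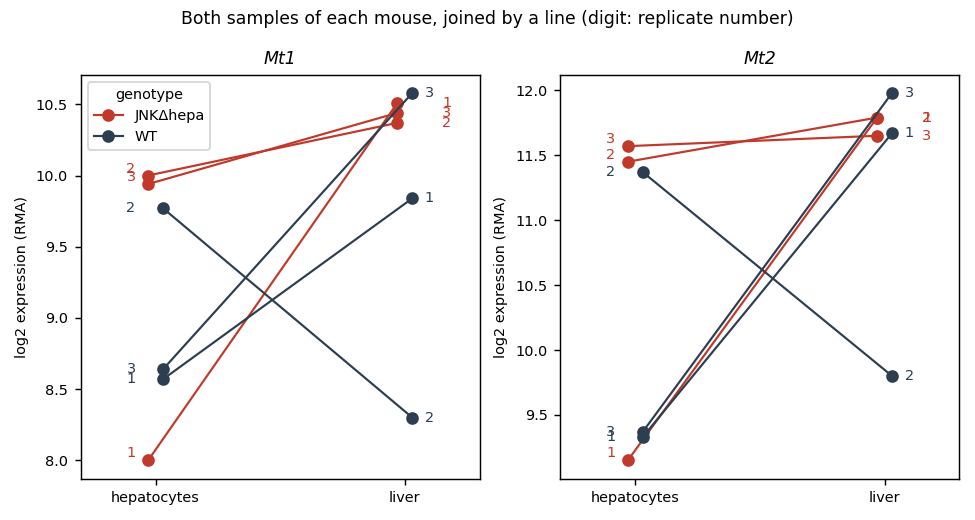
Log2 expression of Mt1 (left panel) and Mt2 (right panel) in the hepatocytes and the liver of each mouse, joined by a line and numbered by replicate, in JNKΔhepa (red) and WT (dark blue). Hepatocytes of WT mouse 2 read 9.77 for Mt1 and its liver 8.30, whereas hepatocytes of JNKΔhepa mouse 1 read 8.00 and its liver 10.51.

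Liver and hepatocytes of one mouse could lie at opposite ends for the metallothioneins. WT mouse 2 had the highest WT hepatocyte values and the lowest liver values of both genes, as the plot of both samples of each mouse shows. JNKΔhepa mouse 1 had the lowest hepatocyte value of all mice for both genes, while its liver was within 0.14 log2 units of the other JNKΔhepa livers. The pooled standard deviation within groups was 0.88 for Mt1 and 1.07 for Mt2, ranks 20 and 6 of 18820 genes, against a median of 0.139 over all genes.

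After the mean of each tissue was subtracted, the gene most like Mt1 over the 12 arrays was Mt2 (Pearson r = 0.955). It was followed by Il6ra, the interleukin-6 receptor subunit (r = 0.941), Fbxo31, an F-box protein gene (0.938), Rab43, a small GTPase gene (0.911), and Herpud1, a gene of the endoplasmic reticulum stress response (0.902). Il6ra read 7.99, 8.57 and 8.81 in JNKΔhepa hepatocytes 1, 2 and 3, against 8.06, 8.72 and 8.11 in WT hepatocytes. It read 8.82, 8.83 and 8.97 in JNKΔhepa livers, against 8.85, 8.08 and 8.79 in WT livers. JNKΔhepa hepatocyte sample 1, WT hepatocyte samples 1 and 3 and WT liver 2, the low arrays of Mt1, were also the low ones of their group or tissue for Il6ra. These coefficients describe 12 arrays from 6 mice, chosen as the highest of all genes, and carry no test. The other 8 genes of the list had r between −0.19 (Slc30a10) and 0.64 (Slc39a5) with Mt1.

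Slc39a2 encodes the zinc importer ZIP2. It read 6.39, 6.73 and 6.95 in JNKΔhepa livers 1, 2 and 3, against 4.81, 4.82 and 5.27 in WT livers. All JNKΔhepa livers lay above all WT livers, and the log2 difference was 1.73 (SE 0.25). This is the value on which the gene was selected. Without single arrays of the liver it stayed between 1.595 (without JNKΔhepa liver 3) and 1.88 (without JNKΔhepa liver 1).

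In hepatocytes Slc39a2 read 3.09, 4.33 and 3.98 in JNKΔhepa samples 1, 2 and 3, against 3.69, 3.61 and 3.62 in WT samples. The JNKΔhepa samples lay on both sides of the narrow WT range. The change did not pass (log2 change 0.16, 95% interval −0.38 to 0.70, limma adjusted p = 0.871). It was −0.105 without JNKΔhepa hepatocyte sample 2 and 0.51 without sample 1. These readings stood at the 48.3 to 61.1 percentile of all probe sets of their arrays, so they are dim and the size of the change is not exact. The JNKΔhepa livers stood at the 72.5 to 77.9 percentile and the WT livers at 57.8 to 62.1. The WT side of the liver difference is thus dim too, and the size of that difference is not exact either. The hepatocyte change minus the liver change was −1.57 (SE 0.354), which was not tested because it holds the liver values used for selection.

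The genes most like Slc39a2 over the 12 arrays, after the mean of each tissue was subtracted, were Defb1, a beta-defensin gene (r = 0.955), the keratin gene Krt23 (0.919), Rnaseh1, a ribonuclease H gene (0.919), Def8 (0.917) and Fkbp15 (0.914). Defb1 read 6.09, 6.23 and 6.12 in JNKΔhepa livers, against 4.11, 3.92 and 4.79 in WT livers. It read 4.38, 5.03 and 4.91 in JNKΔhepa hepatocytes, against 4.95, 4.50 and 4.76 in WT hepatocytes. The 5 genes were picked as the highest r of all genes over values that hold the liver difference used to choose Slc39a2, so the likeness was fixed by that choice and carries no test. Mt1 had r = 0.633 with Slc39a2 and ranked 1032 among all genes.

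**Figure D2:**
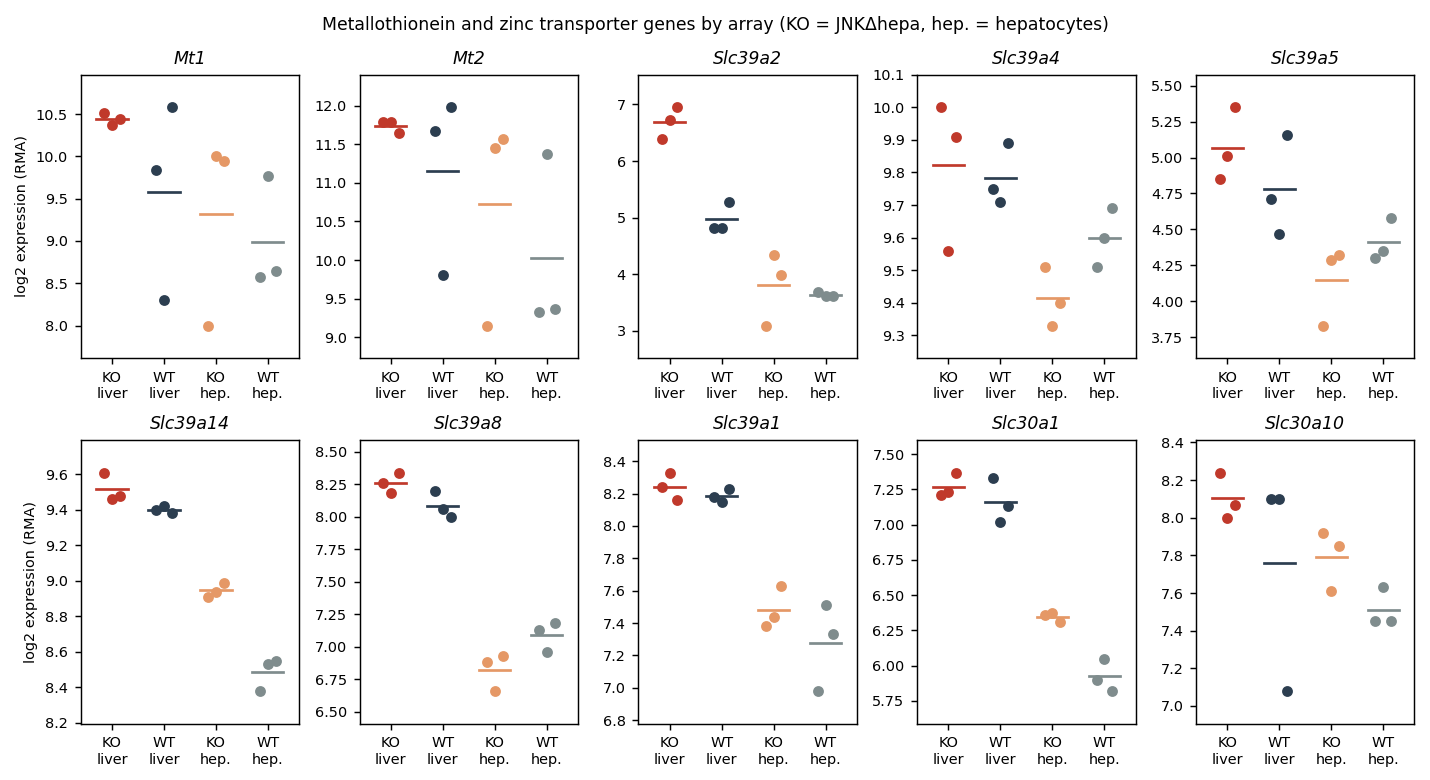
Log2 expression of the 10 genes by array: points are the 3 arrays of a group, in the order JNKΔhepa liver, WT liver, JNKΔhepa hepatocytes and WT hepatocytes, and bars are group means. The vertical scales differ between panels. Slc39a2 separates the genotypes in liver (6.39 to 6.95 against 4.81 to 5.27), and so does Slc39a14 (9.46 to 9.61 against 9.38 to 9.42). In hepatocytes Slc39a14 and Slc30a1 separate them with JNKΔhepa higher, and Slc39a8 and Slc39a4 with JNKΔhepa lower.

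Among importers, Slc39a14 was the gene that changed in hepatocytes. It encodes ZIP14, which carries zinc, iron and manganese into hepatocytes and is known to be induced by interleukin-6 in mouse liver. It read 8.91, 8.94 and 8.99 in JNKΔhepa hepatocytes 1, 2 and 3, against 8.38, 8.53 and 8.55 in WT hepatocytes. Every JNKΔhepa sample was above every WT sample, and the gene rose 1.38-fold (log2 change 0.46, SE 0.0792, 95% interval 0.292 to 0.635, limma adjusted p = 0.0154). The call was lost without WT hepatocyte sample 1 (adjusted p = 0.0733), without JNKΔhepa sample 2 (0.0656) or 3 (0.0705), and when only the 6 hepatocyte arrays were fitted (0.104), with log2 changes of 0.41 to 0.47. In liver it read 9.61, 9.46 and 9.48 in JNKΔhepa samples, against 9.40, 9.42 and 9.38 in WT samples. The liver groups did not overlap either, with a log2 difference of 0.11 (SE 0.0792). The hepatocyte change minus the liver change was 0.35 (SE 0.112) and was not tested.

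The exporter gene Slc30a1 showed a similar pattern but did not pass. It encodes ZnT1, the plasma membrane exporter that MTF-1 induces when zinc is high. It read 6.36, 6.37 and 6.31 in JNKΔhepa hepatocytes 1, 2 and 3, against 5.90, 6.05 and 5.82 in WT hepatocytes. The groups did not overlap, with a log2 change of 0.42 (SE 0.0964, 95% interval 0.21 to 0.63, limma adjusted p = 0.0664). The gene passed without WT hepatocyte sample 2 (adjusted p = 0.0366) and when dim genes were left out of the fit (0.044). In liver it read 7.21, 7.23 and 7.37 in JNKΔhepa samples, against 7.33, 7.02 and 7.13 in WT samples, which overlapped.

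Of the 10 genes, 1 passed at an adjusted p under 0.05 in hepatocytes, Slc39a14, where 0.84% of all genes passed. In liver 0.925% of all genes passed, and the 10 genes were not counted there because this contrast was used for the choice. For 4 of the 10 genes the JNKΔhepa and WT hepatocyte arrays had no overlap, 2 higher and 2 lower in JNKΔhepa, where 14.7% of all genes had none. In liver 20.4% of all genes had none, and the 10 genes were again not counted, since Slc39a2 was chosen by its liver rise. The median log2 change of the 10 genes was 0.245 in hepatocytes, against −0.002 over all genes.

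Slc39a8 and Slc39a4 were the genes whose JNKΔhepa hepatocyte readings all lay below those of WT, and neither passed. Slc39a8, which encodes ZIP8, an importer of zinc, iron and manganese, read 6.88, 6.66 and 6.93 in JNKΔhepa hepatocytes 1, 2 and 3, against 7.13, 6.96 and 7.18 in WT hepatocytes. The groups did not overlap but the change did not pass (log2 change −0.26, SE 0.0985, limma adjusted p = 0.285). In liver it read 8.26, 8.18 and 8.34 in JNKΔhepa samples, against 8.20, 8.06 and 8.00 in WT samples.

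Slc39a4 encodes ZIP4, known for zinc uptake in the intestine. It read 9.51, 9.33 and 9.40 in JNKΔhepa hepatocytes, against 9.51, 9.60 and 9.69 in WT hepatocytes, so the highest JNKΔhepa sample and the lowest WT sample were equal at this rounding and did not overlap before it (log2 change −0.185, SE 0.112, limma adjusted p = 0.562). Its liver values were 9.56 to 10 in JNKΔhepa samples and 9.71 to 9.89 in WT samples. Its probe set stood at the 94.8 to 96.7 percentile of every array, liver and hepatocytes alike.

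Markers of other liver cells moved in the same hepatocyte samples. All 8 Kupffer cell and macrophage markers and all 8 endothelial markers had lower values in JNKΔhepa than in WT hepatocytes, and 0 of either list passed limma over all genes, with 6 and 7 at an unadjusted p under 0.05. Their mean log2 level was 4.88 to 5.35 in JNKΔhepa hepatocytes and 5.29 to 6.00 in WT hepatocytes for Kupffer cells. For the endothelium it was 6.21 to 6.67 in JNKΔhepa and 6.68 to 6.99 in WT hepatocytes, and for 8 stellate cell markers 4.19 to 4.53 and 4.47 to 4.72. Of the cholangiocyte, lymphocyte, erythroid and neutrophil markers, with 5, 6, 2 and 4 measured, 0 passed limma and 1 had an unadjusted p under 0.05. The share of all genes at that unadjusted threshold was not counted, so the counts of these lists have no background. Log2 array values have no true 0, so no marker could be called absent. Their part in the values of Slc39a8, Slc39a14 and Slc30a1 was not tested, and fewer cells of a type cannot be told apart from less RNA per cell. In liver the median change was −0.071 for the Kupffer cell list, 0.113 for the endothelial list and −0.136 for the stellate cell list. Of the 8 stellate cell markers, 6 were below 0 in liver.

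The remaining genes did not separate the genotypes in hepatocytes. Slc39a5 encodes ZIP5, an importer of the basolateral membrane. It read 3.83, 4.29 and 4.32 in JNKΔhepa hepatocytes, against 4.30, 4.35 and 4.58 in WT hepatocytes (log2 change −0.26, SE 0.184, limma adjusted p = 0.634), with liver values of 4.85 to 5.35 in JNKΔhepa and 4.47 to 5.16 in WT. Its probe set stood at the 54.3 to 62.7 percentile of the arrays, so these readings are dim.

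Slc30a10, an exporter known for manganese, read 7.92, 7.61 and 7.85 in JNKΔhepa hepatocytes, against 7.45, 7.63 and 7.45 in WT hepatocytes (log2 change 0.28, SE 0.215, limma adjusted p = 0.671). In liver it read 8.24, 8.00 and 8.07 in JNKΔhepa samples, against 8.10, 8.10 and 7.08 in WT samples. WT liver 3 lay about 1 log2 unit below every other liver for this gene, though not for the metallothioneins, where that same liver was the highest.

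Slc39a1, the widely expressed importer ZIP1, read 7.38, 7.44 and 7.63 in JNKΔhepa hepatocytes, against 6.98, 7.51 and 7.33 in WT hepatocytes (log2 change 0.21, SE 0.122, limma adjusted p = 0.536). It was the gene of the list with 2 probe sets, and the second read −0.168 (SE 0.105) for the same change, so the probe sets disagreed in sign. Its liver values were 8.16 to 8.33 in JNKΔhepa and 8.15 to 8.23 in WT.

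**Figure D3:**
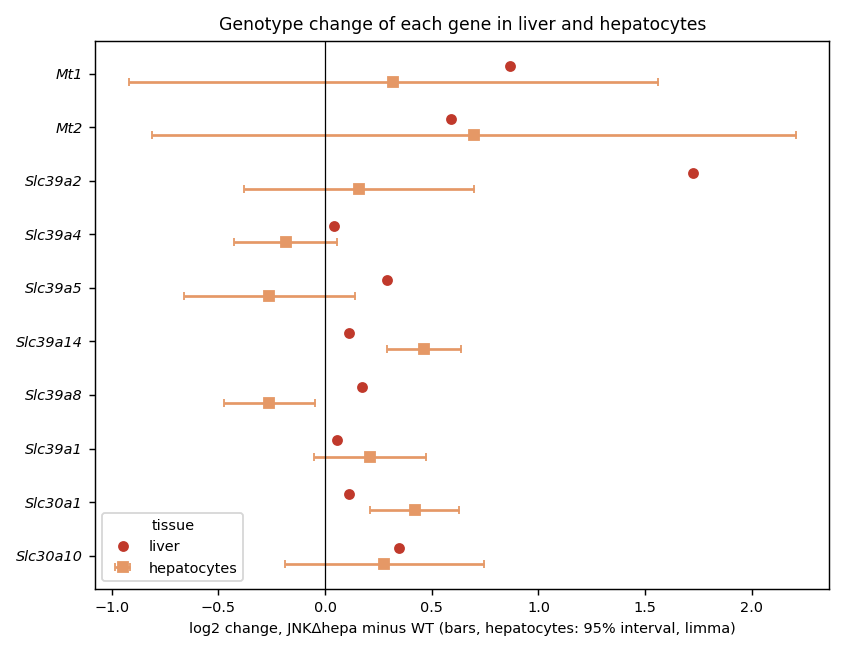
Log2 change, JNKΔhepa minus WT, of each of the 10 genes in liver (circles, no interval) and hepatocytes (squares, with 95% intervals from limma over 3 arrays per group). The hepatocyte intervals of Mt1 and Mt2 are the widest of the 10 genes, and that of Slc39a14 runs from 0.292 to 0.635.

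No change of another zinc gene passed in hepatocytes. Of 19 measured, which were the other ZIP and ZnT genes with Mt3, Mt4 and Mtf1, 0 passed limma over all genes and 0 had an unadjusted p under 0.05. Their median log2 change was 0.05 and their range −0.41 to 0.16. Slc30a7, a zinc carrier of the Golgi, had the smallest p (log2 change 0.16, SE 0.0809, adjusted p = 0.447). In liver their values ran from −0.39 to 0.32 with a median of −0.034.

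Interleukin-6 and acute phase genes, which are induced along with Slc39a14 and the metallothioneins in inflammation, had 0 of 17 past the threshold in hepatocytes. At an unadjusted p under 0.05 there were 5, a count without the share of all genes. Of the 17, 16 had values above 0, with a median log2 change of 0.163 against −0.002 over all genes. Steap4, a metalloreductase gene, had the smallest p (0.68, SE 0.215, limma adjusted p = 0.186). The same list had 7 of 17 above 0 in liver, with a median of −0.1. In the hepatocyte samples all 8 hepatocyte markers also had changes above 0, with a median of 0.032. The part of cell content in the acute phase values was not tested.

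Of 18 genes of iron, manganese and copper handling, 1 fell and 0 rose in hepatocytes. This was Atox1, the cytosolic copper chaperone, with 7.67 as its mean in JNKΔhepa and 8.52 in WT hepatocytes (log2 change −0.85, SE 0.0901, limma adjusted p = 0.000597). In liver its log2 difference was −0.84 (SE 0.0901). Atox1 lies on the same chromosome as Mapk9, the gene deleted in all cells, and the part of that neighbourhood in its change was not tested.

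In the comparison of hepatocytes with liver, Slc39a2 was left out of the tests because its liver values were used for the choice. Of the other 9 genes, 6 tested lower in hepatocytes and 0 higher on the deposited values. Of all genes, 91.5% tested lower and 0.776% higher, and the median gene differed by −0.585. With array medians subtracted, 2 of the 9 genes tested lower, where 12.5% of all genes did, and 2 tested higher, where 59.6% did. With quantile normalisation of all 12 arrays, 3 tested lower, where 22% of all genes did, and 0 higher, where 23.1% did. The median gene then differed by 0.27 and by 0.016.

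Slc39a8 and Slc30a1 tested lower in hepatocytes under all 3 scalings. Slc39a8 averaged 6.96 in hepatocytes and 8.18 in liver (log2 difference −1.22, SE 0.0697, limma adjusted p = 6.31e-09), with −0.36 and −0.59 under the other scalings. Slc30a1 averaged 6.14 in hepatocytes and 7.22 in liver (−1.08, SE 0.0681, adjusted p = 1.43e-08), with −0.225 and −0.40. The difference of Slc39a2, a description with no test, was −2.89 in JNKΔhepa mice and −1.32 in WT mice as deposited. With medians subtracted it was −2.015 in JNKΔhepa mice and −0.49 in WT mice, and with quantiles matched −2.08 in JNKΔhepa mice and −0.49 in WT mice.

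Kupffer cell, endothelial and stellate markers were far lower in the hepatocyte samples, with a mean log2 level of 4.88 to 6.00 in hepatocytes and 7.18 to 7.86 in liver for the Kupffer list over both genotypes. Their part in the differences of Slc39a2, Slc39a8 and Slc30a1 was not tested.

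Slc39a4, Slc39a5 and Slc30a10 changed direction under both other scalings. Slc39a5 differed by −0.64 as deposited (limma adjusted p = 0.000393), by 0.21 with medians subtracted (0.151) and by 0.197 with quantiles matched (0.228). Slc39a4 differed by −0.30 as deposited (limma adjusted p = 0.00315), by 0.56 with medians subtracted (5.19e-05) and by 0.205 with quantiles matched (0.0576). Slc30a10 differed by −0.28 (limma adjusted p = 0.0938), 0.57 (0.00454) and 0.34 (0.0937), and as deposited it passed without WT liver 3 (−0.45, adjusted p = 0.00014). Mt1 (−0.85, adjusted p = 0.0597) and Mt2 (−1.08, adjusted p = 0.0523) did not pass as deposited. On those values, where 91.5% of all genes tested lower, both passed without WT liver 2 (Mt1 −1.17, adjusted p = 0.00694, and Mt2 −1.41, adjusted p = 0.0108). They also passed there without WT hepatocyte sample 2 (0.0287 and 0.0107), JNKΔhepa hepatocyte sample 2 (0.0361 and 0.0373) or 3 (0.0404 and 0.0316). With medians subtracted Mt1 differed by 0 (limma adjusted p = 0.999) and Mt2 by −0.22 (0.696). With quantiles matched Mt1 differed by −0.37 (0.489) and Mt2 by −0.77 (0.217), so neither passed under the other scalings.

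**Figure D4:**
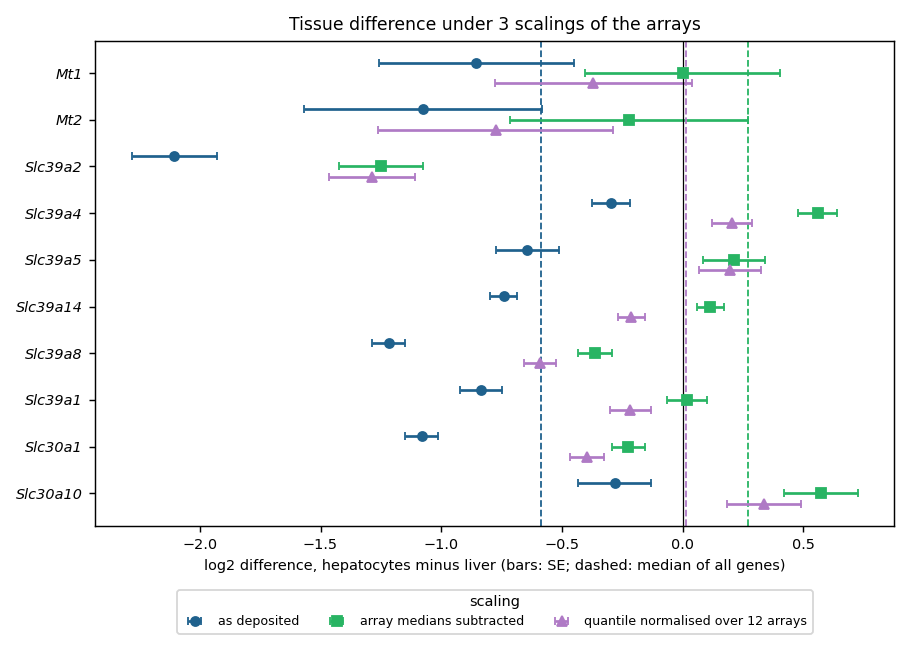
Log2 difference, hepatocytes minus liver, of the 10 genes under 3 scalings of the arrays, with SE bars; dashed lines mark the median of all genes under each scaling (−0.585 as deposited, 0.27 with array medians subtracted, 0.016 with quantiles matched). Slc39a8, Slc30a1 and Mt2 lie left of the dashed line and of 0 under all 3 scalings, and Mt2 did not pass under any of them. The points of Slc39a2 average both genotypes and hold the JNKΔhepa liver values used for its choice.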

How the data were processed

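Each of 12 RNA samples was labelled with biotin and hybridised to its own array. The submitters' processing notes name RMA as the authors' method, and the deposited range fits log2 values. No program or genome build for that step is given in the sources used. The table held 35556 probe sets, of which 21218 carried 1 gene symbol and 1881 several. The brightest probe set over 12 arrays stood for each of 18820 genes. All 10 genes matched the RefSeq table by Entrez number.

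Group means were fitted to all 12 arrays with limma 3.58.1 (R 4.3.3), with 8 residual and 4.76 prior degrees of freedom, two-sided, with Benjamini-Hochberg adjustment over all genes and a threshold of 0.05. The code was tested on simulated data. The genes and the lists were chosen with earlier results of these data known. Named were the 10 genes, Mapk8 and Mapk9, for each list the members that passed in hepatocytes or the one with the smallest p, and the 5 genes most like Mt1 and Slc39a2. Gene lists of other pathways were described by counts and medians. Counts at an unadjusted p under 0.05 are given without the share of all genes, which was not counted. Figures were drawn with Python 3.11.15 and matplotlib 3.10.9. Each mouse gave both tissues. Deviations from group means of the samples of a mouse correlated at r = −0.013 to 0.098 over genes. The number of arrays limits the precision. Alternatives changed the probe-set summary, the filter on dim genes, the scaling, the arrays fitted, the array weights, the variance prior and the blocks.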

Additional observations from a re-analysis of the deposited data

How the results depend on the processing

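Slc39a14 in hepatocytes kept its direction under every alternative run. The Slc39a2 difference in liver did too, but the gene was chosen by that difference, so its stability is a description and no support. Slc39a14 lost its call with the replicate block (limma adjusted p = 0.0521), without 3 single hepatocyte arrays, and in the fit of 6 arrays. The genes of the list called in hepatocytes numbered 0 in the 6-array fit and with the replicate block, 2 with dim genes left out, and 0 to 2 without single arrays, against 1. Over all genes the hepatocyte count was 77 with 6 arrays and 61 to 387 without single arrays, against 158. The liver count was 110 with the replicate block, 408 with array weights and 80 to 225 without single arrays, against 174. Same-numbered JNKΔhepa and WT samples are different mice, and their deviations correlated at r = −0.12 to 0.112, so the number was not taken as a pairing. With the mouse as a block in the tissue comparison, Slc30a10 passed (limma adjusted p = 0.0486).

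Between the tissues, 17371 genes passed as deposited, 9604 with dim genes left out and 8481 with quantiles matched. For the list the count was 4 with quantiles matched against 7, but both hold Slc39a2, whose liver values were used for its choice. Those counts are therefore not a test of the list. Without Slc39a2, 3 of the other 9 genes tested lower with quantiles matched, where 22% of all genes did. As deposited, 6 of the 9 tested lower, where 91.5% of all genes did. Directions turned with array medians subtracted for Slc39a4 (0.559), Slc39a5 (0.212), Slc39a14 (0.114), Slc39a1 (0.018) and Slc30a10 (0.574). With quantiles matched they turned for Slc39a4 (0.205), Slc39a5 (0.197) and Slc30a10 (0.336). The Mt1 difference was 0.000 with array medians subtracted. Without single arrays the hepatocyte change ran from −0.024 to 0.976 for Mt1 and from −0.105 to 0.512 for Slc39a2. The cause was not tested. The files hold no detection calls, so dim readings such as Slc39a2 in hepatocytes have no stated background.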

Other observations

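Stress and hormone pathways that are known to induce metallothioneins were also measured. Of 11 glucocorticoid response genes, 0 passed limma in hepatocytes and 1 had an unadjusted p under 0.05. This was Dusp1, a phosphatase of MAP kinases (log2 change −0.995, SE 0.246, adjusted p = 0.0898), with a difference of −0.20 in liver. The median of the list was 0.065 in hepatocytes, against −0.002 over all genes. Of 9 NRF2 and oxidative stress genes, 0 passed and 1 had an unadjusted p under 0.05, namely Nfe2l2, which encodes NRF2 itself (−0.44, SE 0.103, adjusted p = 0.0755). Its difference in liver was −0.008.

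Of 9 genes of liver zinc enzymes and related proteins, carbonic anhydrases and alcohol dehydrogenases among them, 0 passed limma in hepatocytes. At an unadjusted p under 0.05 there were 0. Car2, a carbonic anhydrase gene, had the smallest p (log2 change −0.26, SE 0.211, adjusted p = 0.695). Their values ran from −0.26 to 0.12 with a median of −0.023.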
